A study of Mus musculus with 2 samples.

Results

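The cluster of miR-465, miR-743 and miR-883 is a group of mouse X-chromosome miRNAs that is best known from the testis. Its members were taken by name, as every miRNA called miR-201, miR-463, miR-465, miR-470, miR-471, miR-509, miR-547, miR-741, miR-742, miR-743, miR-871, miR-878, miR-880, miR-881, miR-883 or miR-890, with any letter and either arm, which gave 38 members of the 1881 mouse miRNAs measured. The group itself was selected on its probe signals on these same arrays, so its signals and the difference between the arrays are given as a description, with no test. No probe for miR-890 was found among the 1881 miRNAs.

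The members are the 2 arms of short hairpin RNAs. The 5p arm comes from the upstream strand of a hairpin and the 3p arm from the downstream strand, and a mature arm pairs with messenger RNAs mainly through its seed, the bases at positions 2 to 8. The genes of this cluster lie between Slitrk2, a gene for a neuronal membrane protein, and Fmr1, the gene affected in fragile X syndrome. They have multiplied and diverged rapidly among mammals, and in the mouse they are expressed mostly in the germ cells and supporting cells of the testis.

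Exosomes, small vesicles that cells release, were collected from the culture supernatants of 2 murine lines, and their RNA, carrying the dye Cy3, was measured on Agilent arrays for mouse miRNAs. KPC cells are a pancreatic cancer line from tumours of mice that carried KrasLSL-G12D/+ and Trp53LSL-R172H/+ together with Pdx1-Cre, a recombinase driven by a promoter active in the developing pancreas, and they were kept with 20% FBS. MPDC cells are a purchased line of pancreatic ductal epithelium, served as the control and were kept with 10% FBS. For MPDC cells no genotype is stated, and for both lines the strain, the sex of the donor animals and the number of clones are not given in the sources used here. There was 1 array per condition and both lay on the same slide, so no SD, p-value or replicate check exists for any array value. The paper also reports RT-qPCR of selected miRNAs, with miR-883b-5p among them, and those values are not used here. In a pool of exosomal RNA, fewer vesicles that carry a miRNA and less of it per vesicle cannot be told apart.

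A detected member had at least 1 probe whose signal exceeded 3 times its scanner error, and 12 of the 38 met this on at least 1 array. Their mature sequences, from RefSeq with the GRCm38.p6 assembly, are shown because the signals and differences of the cluster rest on them. The letters run 5′ to 3′ and the seed is in capitals.
miR-465a-3p: gAUCAGGGccuuucuaaguaga
miR-465b-5p: uAUUUAGAauggugcugaucug
miR-470-5p: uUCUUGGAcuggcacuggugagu
miR-470-3p: aACCAGUAccuuucugagaaga
miR-871-5p: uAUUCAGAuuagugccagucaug
miR-878-3p: gCAUGACAccacacuggguaga
miR-880-3p: uACUCCAUccucucugaguaga
miR-741-3p: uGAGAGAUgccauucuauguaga
miR-883b-5p: uACUGAGAauggguagcaguca
miR-883a-5p: uGCUGAGAgaaguagcaguuac
miR-743b-3p: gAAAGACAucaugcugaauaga
miR-743a-3p: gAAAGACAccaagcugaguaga
The order is that of the genes along the direction of transcription. The 12 sequences carry 11 seeds, since miR-743a-3p and miR-743b-3p have the same one, AAAGACA.

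All 38 members had a sequence in RefSeq, and together they had 32 seeds. Besides AAAGACA, a seed was shared by miR-465a-5p, miR-465b-5p, miR-465c-5p and miR-465d-5p (AUUUAGA), of which 1 was detected, by miR-743a-5p and miR-871-5p (AUUCAGA), of which 1 was detected, and by miR-883a-3p and miR-883b-3p (AACUGCA), of which neither was. Among the other array miRNAs with a sequence, none had the seed of a detected member, and miR-6948-5p had that of miR-743b-5p. The 1608 array miRNAs that could be compared include the members. The arms miR-465b-3p and miR-465c-3p have the same mature sequence as miR-465a-3p and have no entry of their own on the array, so a signal of miR-465a-3p may come from any of the 3 genes.

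All 38 members lie on the minus strand of the X chromosome, and none overlaps a gene of another kind in RefSeq. They form 2 blocks in GRCm38.p6. The block from Mir465 to Mir743 spans chrX:66776760-66839121 (62.4 kb) and holds 32 members, and the block with Mir509, Mir547 and Mir201 spans chrX:67988099-68010170 (22.1 kb) and holds 6. They are 1149 kb apart. The first block starts 115 kb beyond the end of Slitrk2, and the second ends 668 kb before Fmr1. The scanner files themselves give positions on mm9 for 49 of the 104 member probes.

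Each array carried 58594 spots, none of the miRNA spots was saturated, and signals are intensities in arbitrary units with the scanner's own error after "±". The array of KPC-exosomes detected 772 miRNAs and that of MPDC-exosomes 1031, and the 726 detected on both were dimmer on the array of KPC-exosomes by a median of 1.37 on the log2 scale before normalization (KPC-exosomes minus MPDC-exosomes, -1.37). The 4 spike-in controls differed by -0.31 to 0.38. Signals of different miRNAs come from different probes and are not compared as amounts.

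In KPC-exosomes 4 of the 38 members were detected (10.5%), where 41.0% of all miRNAs were. In MPDC-exosomes 11 were detected (28.9%), against 54.8% of all miRNAs. In both preparations the share of the members lay below that of all miRNAs. Both arrays detected miR-871-5p, miR-878-3p and miR-883a-5p. Only the array of KPC-exosomes detected miR-883b-5p, and a share of 2.45% of all miRNAs was detected in that way. The other 8, miR-465a-3p, miR-465b-5p, miR-470-5p, miR-470-3p, miR-741-3p, miR-743a-3p, miR-743b-3p and miR-880-3p, were detected in MPDC-exosomes only, as were 16.2% of all miRNAs. At least 1 array detected 12 members, against 57.3% of all miRNAs.

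The 26 members detected on neither array were miR-201-3p, miR-201-5p, miR-463-3p, miR-463-5p, miR-465a-5p, miR-465c-5p, miR-465d-3p, miR-465d-5p, miR-471-3p, miR-471-5p, miR-509-3p, miR-509-5p, miR-547-3p, miR-547-5p, miR-741-5p, miR-742-3p, miR-742-5p, miR-743a-5p, miR-743b-5p, miR-871-3p, miR-878-5p, miR-880-5p, miR-881-3p, miR-881-5p, miR-883a-3p and miR-883b-3p. Their 74 probes gave signals from -0.75 to 1.73 in KPC-exosomes and from -0.99 to 2.94 in MPDC-exosomes. These signals are too close to the background to say that the miRNAs were absent.

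Near the limit, the ratio of signal to scanner error of a member's best probe separated few members. In MPDC-exosomes it was 3.68 for miR-880-3p, 3.90 for miR-465b-5p and 4.63 for miR-743b-3p, just inside. Just outside were miR-547-5p (2.83), miR-878-5p (2.75), miR-471-3p (2.67), miR-883a-3p (2.67) and miR-871-3p (2.38). In KPC-exosomes miR-883a-5p was the member closest inside (4.13), and miR-470-3p (2.26), miR-470-5p (1.96) and miR-547-5p (1.84) were the closest outside.

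**Figure D1:**
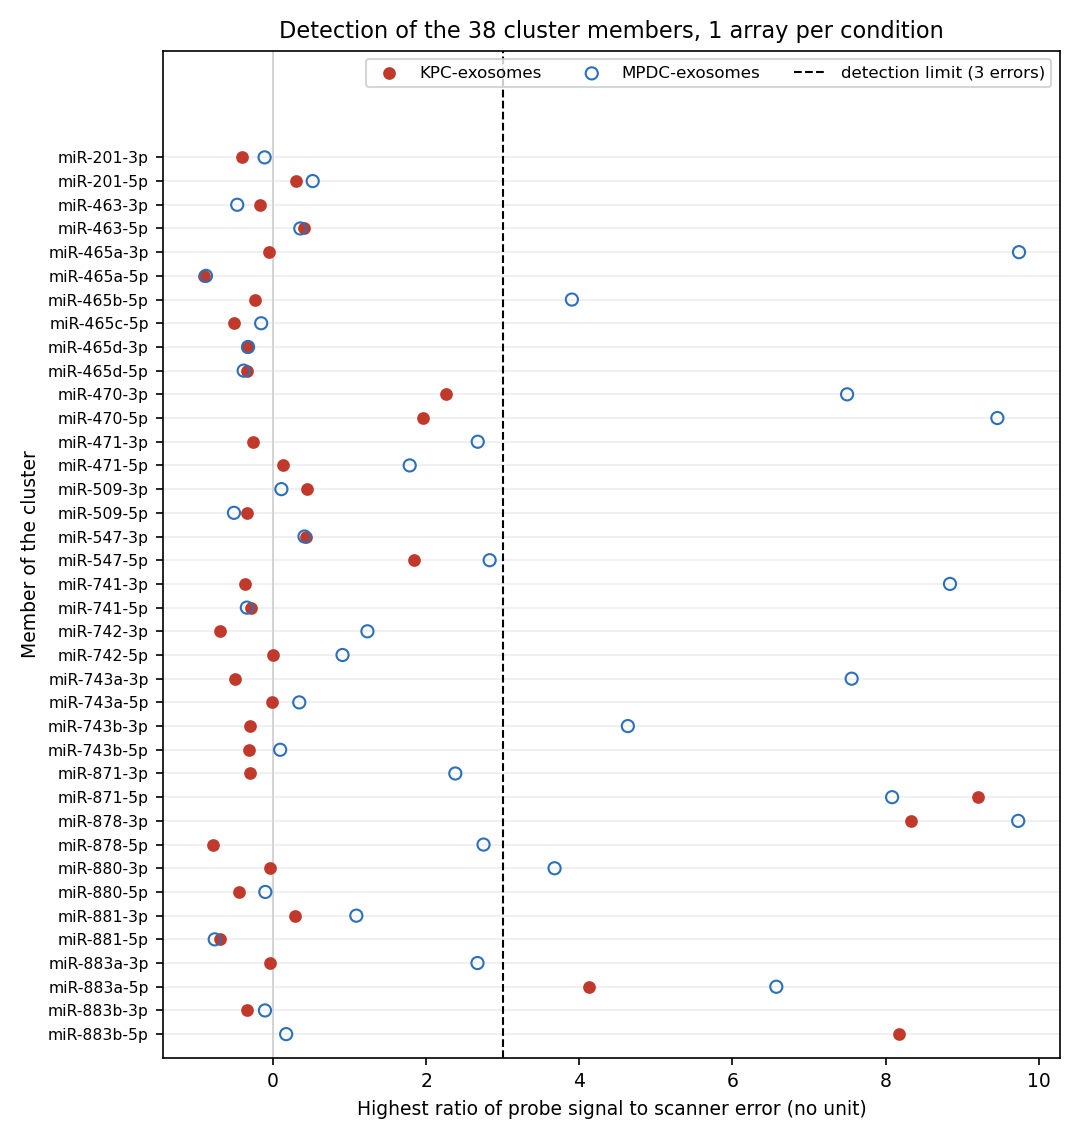
Highest ratio of probe signal to scanner error (horizontal axis, no unit) for each of the 38 members (vertical axis), with filled red points for KPC-exosomes, open blue points for MPDC-exosomes and the detection limit of 3 errors as a dashed line. Right of the line lie 4 red and 11 blue points, and 5 blue points lie between 2.38 and 2.83.

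The signals of the 8 members detected in MPDC-exosomes only are given before normalization. miR-465a-3p had a signal of 50.2 ± 4.64, with both of its probes detected. miR-470-5p had 30.0 ± 3.17 from 1 of 2 probes, and miR-470-3p, the opposite arm of the same hairpin, had 20.8 ± 2.05 from both of its probes. miR-470 was the hairpin that gave a signal from each arm.

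miR-741-3p had a signal of 19.2 ± 2.17 in MPDC-exosomes, from 1 of 2 probes. miR-743a-3p had 11.5 ± 1.53 and miR-743b-3p, which shares its seed, had 5.24 ± 1.13, each from 1 of 2 probes. The genes of this pair are neighbours at the downstream end of the block. miR-880-3p had 3.94 ± 1.07 from 1 of 2 probes, and miR-465b-5p had 1.97 ± 0.506 from 1 of 4 probes. Both of these signals were within 4 errors of 0. In KPC-exosomes the best probe of miR-470-3p and of miR-470-5p came nearest to detection, and the best probes of the other 6 had signals below 0.

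The 3 members detected on both arrays did not move one way. miR-871-5p gave 44.9 ± 3.45 in KPC-exosomes and 22.8 ± 2.18 in MPDC-exosomes, with both probes detected on both arrays, so that it was 1.97-fold brighter in KPC-exosomes. miR-878-3p gave 23.1 ± 1.501 in KPC-exosomes and 77.9 ± 4.06 in MPDC-exosomes, with all 4 probes detected on both, and was 3.37-fold brighter in MPDC-exosomes. miR-883a-5p gave 4.24 ± 1.03 in KPC-exosomes and 8.72 ± 1.33 in MPDC-exosomes, from 1 of 2 probes on each array, and was 2.06-fold brighter in MPDC-exosomes. The scanner errors of miR-871-5p and miR-878-3p are small beside these differences, while for miR-883a-5p the error of the log2 difference was 0.41 against a difference of -1.04.

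miR-883b-5p was the member detected in KPC-exosomes only, with a signal of 16.1 ± 1.32 from all 4 of its probes. In MPDC-exosomes its 4 probes summed to -0.57, at the background. Its relative miR-883a-5p was detected on both arrays. Their seeds, ACUGAGA and GCUGAGA, differ in the first letter.

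**Figure D2:**
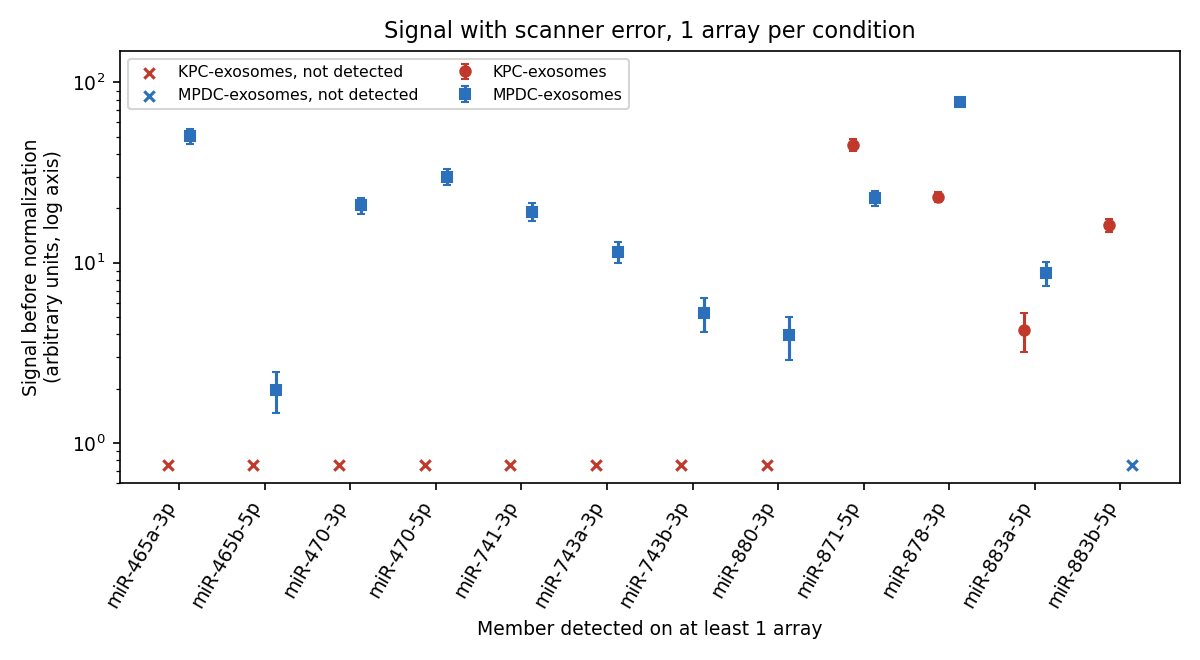
Signal before normalization (vertical log axis, arbitrary units) of the 12 detected members (horizontal axis), with circles for KPC-exosomes, squares for MPDC-exosomes, bars for the scanner error and crosses at the bottom, which carry no value, for members not detected on that array. miR-871-5p and miR-883b-5p are the members brighter in KPC-exosomes, and 8 members have a cross for KPC-exosomes.

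Single spots were compared with the 400 negative-control spots of each array, on the scale of the processed signal per spot. The negative controls had a median of 1.21 in KPC-exosomes and of -0.27 in MPDC-exosomes, and their highest 2.5% lay above 6.66 and 4.77. Every spot of the brightest probe of each detected member lay above that value. For miR-465a-3p in MPDC-exosomes the 15 spots ran from 142 to 181 with a median of 157. For miR-883b-5p in KPC-exosomes the 8 spots ran from 28.9 to 66.5 with a median of 51.1, and the highest spots of its other probes were 26.3, 34.2 and 37.9. The dimmest were miR-880-3p in MPDC-exosomes, with 15 spots from 9.46 to 19.5, and miR-883a-5p in KPC-exosomes, with 15 spots from 8.51 to 23.2. Spots of 1 array are repeat measurements of the same RNA. The brightest negative-control spot reached 43.0 in KPC-exosomes and 26.8 in MPDC-exosomes. That was above every spot of the brightest probe of miR-883a-5p in KPC-exosomes and of miR-880-3p and miR-465b-5p in MPDC-exosomes. In KPC-exosomes it was also above the lowest spot of the brightest probe of miR-883b-5p and every spot of its other probes. The shorter probe of miR-880-3p, which was not detected, had a highest spot of 133 in MPDC-exosomes, with a median of 7.24.

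All 12 detected members lay in the block from Mir465 to Mir743, and 0 of the 6 members in the other block were detected. Of the 20 hairpins with an arm on the array, 4 had a detected arm in KPC-exosomes and 10 in MPDC-exosomes. Both arms were measured for 18 hairpins, and both were detected only for miR-470 in MPDC-exosomes. The signals did not form a run along the block. In MPDC-exosomes they came from both ends and from several genes between, and undetected hairpins such as miR-465d, miR-881, miR-463, miR-471 and miR-742 lay among detected ones.

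**Figure D3:**
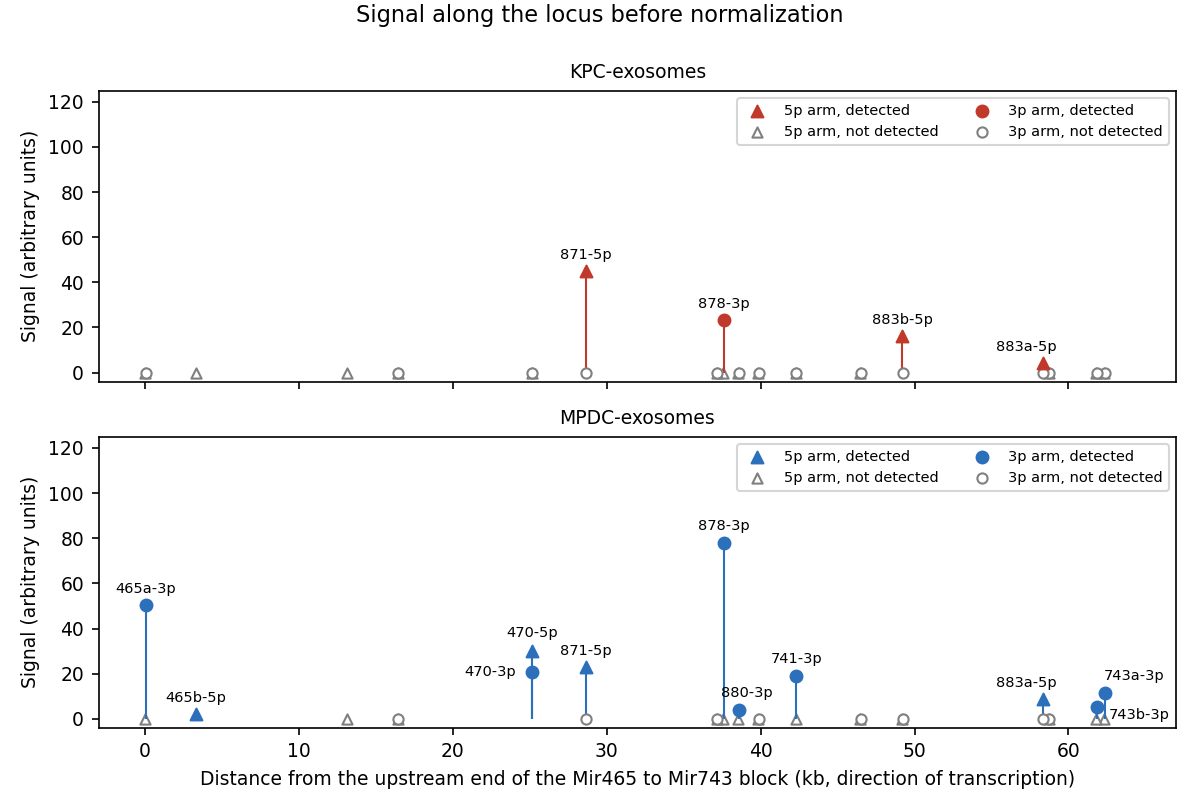
Signal before normalization (vertical axis, arbitrary units) against the distance of each mature arm from the upstream end of the block from Mir465 to Mir743 (horizontal axis, kb), in KPC-exosomes above and MPDC-exosomes below, with triangles for 5p arms, circles for 3p arms and open grey symbols for arms that were not detected. The 4 signals in KPC-exosomes lie in the middle and downstream part, whereas those in MPDC-exosomes run from miR-465a-3p at 0.058 kb to miR-743a-3p at 62.4 kb.

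Both kinds of arm were among the detected members. In MPDC-exosomes 7 of 18 3p arms and 4 of 20 5p arms were detected, where 48.4% and 60.8% of all 3p and 5p arms were. In KPC-exosomes 1 of 18 3p arms and 3 of 20 5p arms were detected, against 34.5% and 45.2% of all. All but 2 of the 8 members detected in MPDC-exosomes only were 3p arms, the exceptions being miR-465b-5p and miR-470-5p. The member detected in KPC-exosomes only, miR-883b-5p, is a 5p arm.

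The detected 3p arms end alike. All 7, as the sequences above show, end in aga, so that their probes begin with TCT at the 5′ end. This pattern was chosen after the values were seen. Of the 8 member 3p arms whose probes begin so, 7 were detected in MPDC-exosomes and 1 in KPC-exosomes, with miR-881-3p as the undetected one. Of the 10 other member 3p arms 0 were detected on either array. Among the miRNAs outside the cluster, 47 have probes with that start, of which 63.8% were detected in KPC-exosomes and 78.7% in MPDC-exosomes, against 41.1% and 54.7% of the 1796 others. The part of the probe start in the detection of the 3p arms was not tested.

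The probes of a member differ in length by 1 to 3 bases, and they did not always give the same signal. Probe signals were compared without adjustment for the number of spots per probe. In MPDC-exosomes the longest probe was brighter than the shortest for 9 of the 11 detected members and for 76.8% of 1019 other detected miRNAs. In KPC-exosomes it was brighter for 0 of 4 members and for 72.7% of 768 others. The longest probes of 3 members are shown, 5′ to 3′, because 1 more base, in capitals, went with a large step in signal.
miR-465a-3p probe: tctacttagaaaggccctG
miR-470-5p probe: actcaccagtgccaG
miR-743a-3p probe: tctactcagcttggtG
In MPDC-exosomes the shorter and the longer probe gave 6.58 and 43.6 for miR-465a-3p, 2.88 and 30.0 for miR-470-5p, and 1.502 and 11.5 for miR-743a-3p. For miR-741-3p they gave 2.87 and 19.2. The step was smaller for miR-470-3p, from 9.38 to 11.4.

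The members seen in KPC-exosomes did not show such a step upward there. The shortest and the longest probe of miR-871-5p gave 22.7 ± 2.47 and 22.1 ± 2.41 in KPC-exosomes, no difference beyond the scanner error, and 9.03 and 13.8 in MPDC-exosomes. Those of miR-878-3p gave 7.48 and 4.91 in KPC-exosomes, and 23.0 and 17.7 in MPDC-exosomes. Those of miR-883b-5p gave 7.55 and 3.63 in KPC-exosomes. For miR-878-3p and miR-883b-5p the shortest probe had 8 spots and the longest 7, which adds to the fall. Their median processed signals per spot, shortest and longest, were 49.4 and 33.9 for miR-878-3p and 51.1 and 25.8 for miR-883b-5p in KPC-exosomes. In MPDC-exosomes those of miR-878-3p were 155 and 138. The 2 probes of miR-883a-5p disagreed most, with 4.24 and -0.31 in KPC-exosomes and 8.72 and 2.03 in MPDC-exosomes, so that its signal rests on the shorter probe on both arrays.

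**Figure D4:**
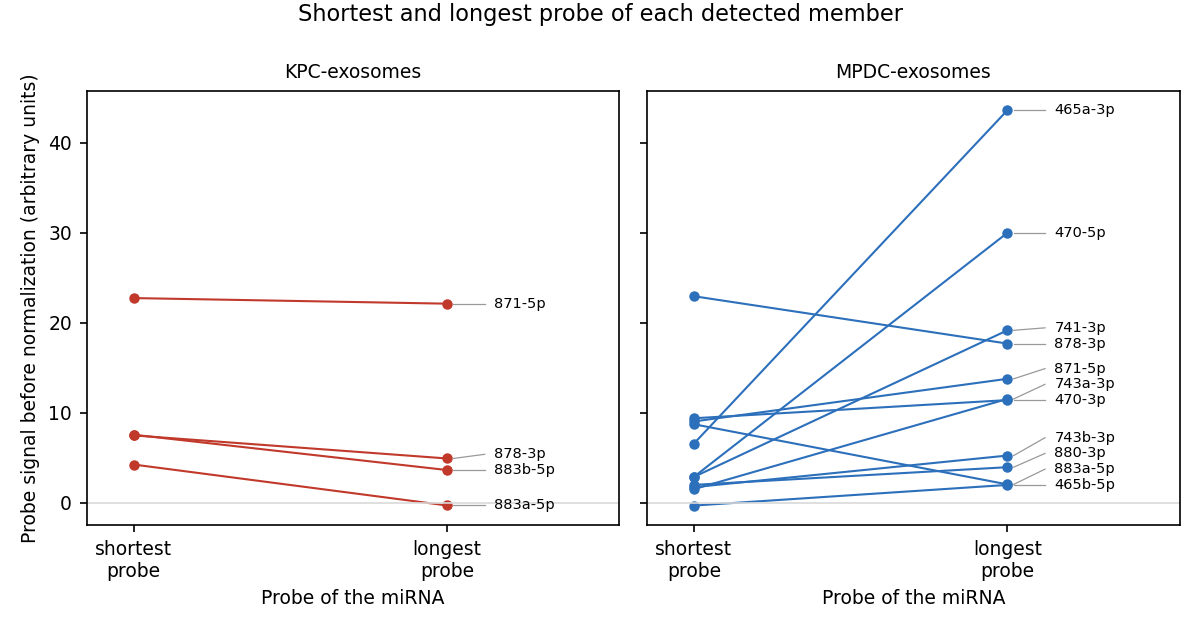
Signal before normalization (vertical axis, arbitrary units) of the shortest and the longest probe of each detected member, joined by a line, in KPC-exosomes (left, 4 members) and MPDC-exosomes (right, 11 members). On the left the line of miR-871-5p is nearly level and the other 3 fall, and on the right 9 rise and those of miR-878-3p and miR-883a-5p fall.

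The probes were also compared with the other miRNAs of the array for shared bases. The longest probes of the 12 detected members shared runs of at most 10 bases with a miRNA outside the cluster. A run of 10 was shared by miR-465a-3p with miR-326-5p, by miR-470-5p with miR-183-5p and miR-1962, and by miR-743a-3p with miR-223-5p and miR-7215-5p. The brighter of the pair that overlaps miR-470-5p had a signal of 478 in KPC-exosomes and 5639 in MPDC-exosomes, while both of the pair that overlaps miR-743a-3p were undetected on both arrays. miR-326-5p gave 8.64 in KPC-exosomes and 56.6 in MPDC-exosomes. Within the cluster the longest run was 12 bases, between the probe of miR-465a-3p and miR-465d-3p, which was undetected on both arrays. Whether RNA of other miRNAs added to these signals was not tested.

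For the comparison of KPC-exosomes with MPDC-exosomes the arrays were quantile normalized, which gave the deposited log2 values to within 1.11e-05, and differences are log2 of KPC-exosomes minus MPDC-exosomes. miR-871-5p was higher in KPC-exosomes by 2.83 and miR-883a-5p by 3.26, and miR-878-3p differed by 0.12, equal to its scanner error of 0.12. Before normalization the same differences were 0.98, -1.04 and -1.75. The direction of miR-883a-5p and of miR-878-3p therefore depends on the scaling, and that of miR-871-5p does not. With undetected signals set to 0.1, 3 members (miR-871-5p, miR-883a-5p and miR-883b-5p) were at least 2-fold higher in KPC-exosomes, where 31.5% of all detected miRNAs were, and the 8 detected in MPDC-exosomes only were lower by at least that much, where 42.7% were. Without normalization 1 member, miR-883b-5p, was higher by at least 2-fold, where 11.1% of all detected miRNAs were, and 10 were lower, where 68.0% were.

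For the members detected on 1 array a bound replaces the fold. It sets the signal against the higher of the lowest detected signal of the other array and the member's own signal over all its probes there. A probe of a member can lie above that lowest signal and still be within 3 of its own errors. A stricter bound is therefore given beside the first, with the limit raised to 3 errors of the member's own probe with the largest error. That limit was 2.78 to 2.86 for the 15-spot probes of the members undetected in KPC-exosomes, and 1.48 for miR-465b-5p. It covers 1 probe, whereas the detected signals of miR-465a-3p, miR-470-3p and miR-883b-5p sum more than 1. Several undetected probes of these members could add up to more than the limit, so their bounds are no strict minimum.

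For miR-883b-5p the bounds were 77.8-fold higher in KPC-exosomes after normalization and 10.71-fold before it, and under the stricter limit 75.7-fold and 10.1-fold. For miR-465a-3p they were 5.91-fold lower after normalization and 35.7-fold before it, and under the stricter limit 4.09-fold and 18.0-fold. The signals sum 4 probes for miR-883b-5p and 2 for miR-465a-3p, whereas the stricter limit covers 1, so none of these bounds is a strict minimum. Bounds so computed were highest for miR-883b-5p and miR-465a-3p, each in its direction, among the 9 members. After normalization bounds of opposite direction cannot be compared in size, because the limits had moved apart. The dimmest detected miRNA on the array of KPC-exosomes went from a signal of 1.41 to a normalized log2 value of 2.19. Its counterpart on the array of MPDC-exosomes went from 1.51 to -1.36. Normalization thus raised the bound of miR-883b-5p, and lowered or removed the bounds of the members detected in MPDC-exosomes only. For miR-470-5p the bounds were 3.13-fold and 15.97-fold lower, and under the stricter limit 2.51-fold and 10.5-fold.

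For miR-741-3p the bounds were 2.01-fold and 13.6-fold lower, and under the stricter limit 1.39-fold and 6.89-fold. For miR-470-3p they were 1.14-fold and 4.99-fold under both limits. miR-743a-3p, miR-743b-3p, miR-880-3p and miR-465b-5p had no bound after normalization, because their normalized signal in MPDC-exosomes lay under the lowest detected one in KPC-exosomes. Before normalization their bounds were 8.20-fold, 3.72-fold, 2.80-fold and 1.40-fold lower, and under the stricter limit 4.14-fold, 1.88-fold, 1.42-fold and 1.33-fold.

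Of the 8 members detected in MPDC-exosomes only, 3 had a bound of at least 2-fold after normalization, where 36.1% of all 305 miRNAs detected in that way did, and 7 had one before it, where 88.9% did. Under the stricter limit the counts were 2, against 32.1%, and 5, against 77.0%. miR-741-3p after normalization, and miR-743b-3p and miR-880-3p before it, had a bound of at least 2-fold under the first limit alone.

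**Figure D5:**
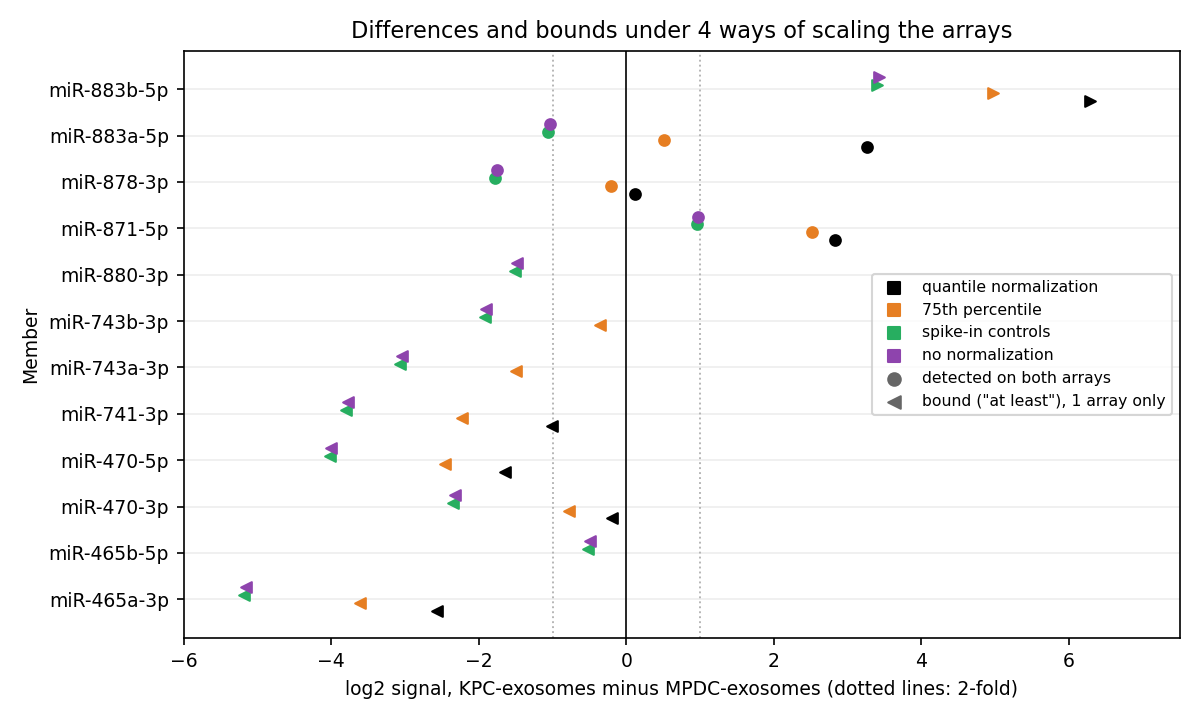
Log2 signal of KPC-exosomes minus MPDC-exosomes (horizontal axis) for the 12 detected members (vertical axis), with points for members detected on both arrays, triangles for bounds under the first of the limits above that point toward larger differences, and colours for 4 ways of scaling the arrays. The points of miR-871-5p and the triangles of miR-883b-5p are right of 0 in all 4, those of miR-878-3p and miR-883a-5p lie on both sides, and every triangle of the other 8 members is left of 0.

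With undetected signals set to 0.1, the median log2 difference of the 12 detected members was -2.04, against -0.26 over all 1077 detected miRNAs. With bounds it was -0.04 over the 8 members that have a value, against 0.30 over 905 miRNAs. The members left out there were all detected in MPDC-exosomes only. With bounds and no normalization it was -1.82 over 12 members, against -1.60 over 1072 miRNAs. The medians with bounds mix exact differences with bounds of either direction, so they do not give a typical difference. The detected members summed to a signal of 88.4 in KPC-exosomes and of 252 in MPDC-exosomes, and all detected miRNAs to 429230 and 1406240.

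Other miRNAs known from the testis and germ cells, are the arms of miR-34b, miR-34c, miR-202 and miR-449, of which 11 were on the array. Of these 1 was detected in KPC-exosomes and 6 in MPDC-exosomes, and their summed signal was 154 and 810. miR-202-3p, which is abundant in gonads, had a signal of 154 ± 11.0 in KPC-exosomes and 639 ± 45.3 in MPDC-exosomes. miR-34b-5p (70.9 ± 5.64) and miR-34c-5p (56.0 ± 5.22), which share a seed family with miR-449 and are found in ciliated epithelia as well as in the testis, were detected in MPDC-exosomes only. The other arms detected there were miR-449a-3p (31.3), miR-449a-5p (8.997) and miR-34c-3p (4.06). miR-202-5p, the opposite arm of miR-202-3p, was undetected on both arrays, as were miR-34b-3p, miR-449b, miR-449c-3p and miR-449c-5p. After normalization 0 of the 6 detected arms were at least 2-fold higher in KPC-exosomes and 5 were lower, against 31.5% and 42.7% of all detected miRNAs.

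Other miRNAs that the scanner files place on the X chromosome were counted in the same way. These files give a position for 20 of the 38 cluster members, so X-linked miRNAs without a position there may be missing. Of 64 such miRNAs 31 were detected in KPC-exosomes (48.4%) and 36 in MPDC-exosomes (56.3%). After normalization 11 of the 39 detected on at least 1 array were at least 2-fold higher in KPC-exosomes and 14 lower. Over all detected miRNAs the shares were 31.5% and 42.7%. The members with the largest signals were miR-20b-5p, of a cell-cycle cluster related to miR-17, at 1239 ± 96.5 in KPC-exosomes and 60138 ± 4278 in MPDC-exosomes, miR-322-5p at 596 ± 43.6 and 615 ± 46.1, and miR-221-3p at 501 ± 36.4 and 99.4 ± 7.40. miR-361-5p gave 397 ± 28.9 and 11399 ± 837, and miR-3473a gave 74.4 ± 6.86 and 7240 ± 645. Before normalization miR-221-3p was brighter in KPC-exosomes, miR-322-5p differed by less than its errors, and the other 3 were brighter in MPDC-exosomes.

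Markers of other cell types moved between the arrays too, and their part in the signals of the cluster was not tested. Of 28 miRNAs of pluripotent cells 15 were detected in KPC-exosomes and 23 in MPDC-exosomes, with a summed signal of 3747 and 492701. After normalization 2 of the 25 detected on at least 1 array were at least 2-fold higher in KPC-exosomes and 20 lower. Over all detected miRNAs the shares were 31.5% and 42.7%. In this list miR-290b-5p gave 2760 ± 196 in KPC-exosomes and was undetected in MPDC-exosomes, while miR-293-3p gave 210 ± 15.3 and 133993 ± 9702. Likewise miR-292a-3p gave 180 ± 13.5 and 135570 ± 9758, and miR-294-3p 82.4 ± 5.88 and 73780 ± 4455.

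The labelled origin of the cells was checked with 2 lists. Of 7 epithelial miRNAs 5 were detected in KPC-exosomes and all 7 in MPDC-exosomes, with a summed signal of 98.8 and 1781. miR-200c-3p, which holds cells in an epithelial state, had a signal of 4.58 ± 1.04 in KPC-exosomes and 991 ± 83.4 in MPDC-exosomes. miR-200b-3p gave 24.4 ± 2.52 and 281 ± 24.8, miR-429-3p 42.8 ± 3.31 and 244 ± 17.4, and miR-141-3p 23.6 ± 2.18 and 114 ± 10.1. miR-200a-3p gave 3.38 and 38.3, and miR-205-5p (94.0) and miR-203-3p (18.1) were detected in MPDC-exosomes only. Of 5 pancreas miRNAs 1 was detected on each array, miR-217-5p in KPC-exosomes (60.9 ± 3.42) and miR-148a-3p in MPDC-exosomes (1190 ± 88.5), while miR-216a-5p, miR-216b-5p and miR-375-3p, which mark acinar and islet cells, were undetected on both.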

How the data were processed

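Exosomal RNA of KPC cells and of MPDC cells was measured on 1 Agilent array each, grouped by the labels. The authors deposited scanner output as intensity values with errors, background-subtracted and not normalized between arrays, written by Agilent Feature Extraction 10.7.1.1 per the file headers (9.1 in the submitters' processing notes). They also deposited normalized log2 values per miRNA, made in GeneSpring. The labels state 0.5 µg of RNA per labelling and name an amplification kit, whereas the methods describe labelled RNA.

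The total signals of probes above 3 errors were summed per miRNA, miRNAs without one were set to 0.1, and log2 values of 1881 miRNAs and 21 control features were quantile normalized with ties averaged. The result was within 1.11e-05 of the deposited log2 values. This normalization gives both arrays the same distribution, so a difference in total miRNA is removed and dim signals are shifted by another amount than bright ones. A call was a detected miRNA with at least a 2-fold difference. With 1 array per condition no test was made, and the number of arrays limits the precision.

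The members, the gene lists and the alternatives were chosen with earlier results of these data known. Every member was accounted for by name, and of each of the other lists the 3 brightest miRNAs on each array were named. The detected testis and epithelial miRNAs beyond these, and the undetected testis and pancreas miRNAs, were named after their values were seen. Alternatives were other scalings, background corrections, probe sums, floors and detection limits. The code for normalization and calls was tested on simulated data, which does not bear on how exosome preparations vary. A stricter limit for the bounds was added after the data were seen. The tools were Python 3.11.15 (numpy 2.4.6, pandas 2.3.3, matplotlib 3.10.9) and R 4.3.3, in which limma 3.58.1 made the normexp correction.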

Additional observations from a re-analysis of the deposited data

How the results depend on the processing

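No paired analysis was possible because each condition had 1 array. Over the results recomputed, 64 values stayed within the scanner error or within 1.5 times the reported count, and 38 moved. Another 2, both of miR-883a-5p, lost the direction of a difference of at least 2-fold. The 64 include the deposited log2 values, which the reported ones reproduce, so that these could not move. They also include the detection calls of Feature Extraction, which named the same members. miR-878-3p, reported at 0.12, also changed sign under 5 settings. Scaling by the spike-in controls and no normalization each left 1 member at least 2-fold higher (3 as reported), gave 7 bounds of at least 2-fold lower (3 as reported), and turned miR-883a-5p from 3.26 to -1.07 and -1.04. They also gave 0.95 and 0.98 for miR-871-5p, -1.78 and -1.75 for miR-878-3p, and -5.53 and -5.51 for the median difference of detected members. The median over all detected miRNAs moved too, from -0.26 as reported to -2.20 and -2.17. Scaling to the 75th percentile and to the median of miRNAs that both arrays detected gave 2.52 and 2.60 for miR-871-5p. It gave -0.21 and -0.13 for miR-878-3p, 0.50 and 0.59 for miR-883a-5p, and -3.96 and -3.88 for the median of detected members. The processed signal with the 75th percentile gave 2.45, -0.30, 0.48 and -5.90 for the same results. With these scalings the median over all detected miRNAs was -0.63, -0.55 and -0.70. Normexp with an offset of 50 left 1 member higher and 0 lower, with 1.31 for miR-871-5p and 0.087 for miR-883a-5p. Its median was -0.14 for detected members and 0.026 for all detected miRNAs. The brightest probe gave 2.52 for miR-871-5p. The sum over all probes gave 0.51 for miR-883a-5p and a median of -2.33, against 0.12 over all detected miRNAs. A floor of 1 gave 5 members lower and a median of -0.77, against -0.19. Bounds in place of floors gave 3 lower and a median of -0.036, against 0.30, where both medians mix exact differences with bounds. Requiring detection on both arrays left 0 lower, and requiring a difference above 2 scanner errors as well also left 0. Both counts were fixed in advance, because every member counted as lower was undetected in KPC-exosomes. A detection limit of 2 errors gave 2 3p arms in KPC-exosomes instead of 1. The bound limit of 3 errors of a member's own probes, chosen after the data were seen, left 2 members at least 2-fold lower, and with no normalization 5. The cause of these changes was not tested. Depth on these arrays is signal over background: miR-465b-5p, miR-743b-3p, miR-880-3p and, in KPC-exosomes, miR-883a-5p lay below 5 errors.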

Other observations

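The limit set for detection decides which arms of the cluster appear. At 2 errors 5 more members were counted in MPDC-exosomes, namely miR-471-3p, miR-547-5p, miR-871-3p, miR-878-5p and miR-883a-3p, and miR-470-3p was added in KPC-exosomes. At that limit 59.1% of all miRNAs were detected in MPDC-exosomes and 45.7% in KPC-exosomes. At 5 errors miR-465b-5p, miR-743b-3p and miR-880-3p dropped out in MPDC-exosomes and miR-883a-5p in KPC-exosomes.

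The per-miRNA total written by Feature Extraction was not the sum of the member's own detected probes for 6 of the 11 members detected in MPDC-exosomes, at a relative tolerance of 0.001. For miR-465b-5p the written total was 52.2 and its own probes summed to 1.97, and the excess of 50.2 was the signal of miR-465a-3p. For miR-880-3p the written total was 81.9 against 3.94, and the excess of 77.9 was the signal of miR-878-3p. For miR-470-5p it was 50.8 against 30.0, and the excess of 20.8 was that of miR-470-3p. The totals of miR-741-3p (43.0), miR-743a-3p (54.5) and miR-743b-3p (59.7) were also above their own sums. The 4 members detected in KPC-exosomes had totals equal to their sums. Over the whole arrays 143 of 772 totals differed in KPC-exosomes and 182 of 1031 in MPDC-exosomes. These totals were not used for any signal given here.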
